A study of Homo sapiens with 7 samples.

Results

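Tissue inhibitors of metalloproteinases (TIMPs) and pappalysins were described in the human megakaryoblastic leukemia line MEG-01, with and without knockdown of the RNA-binding protein RBM15. The set has 6 genes, TIMP1, TIMP2, TIMP3, TIMP4, PAPPA and PAPPA2, of 62238 genes with exon bins in the deposited counts. They were selected on measured values, since the family was taken up after TIMP3 and PAPPA2 were seen to be lower in the knockdown libraries. All values of the 6 genes in the comparison of knockdown with control are therefore a description and carry no test.

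Total RNA was sequenced without strand information from 1 control culture and from 2 stable lines, shRBM15#1 and shRBM15#2, each with a different short hairpin RNA against RBM15. All 3 cultures are labelled as carrying lentiviral transgenes, and the control is the library without a knockdown entry. All were at passage 5, grew in RPMI-1640 with 10% fetal bovine serum and were harvested in exponential growth. The control had 53230029 reads on exon bins, shRBM15#1 had 41629454 and shRBM15#2 had 52458857. Nothing in the sources states that the 3 libraries came from replicate cultures of 1 kind, so the p-values measure only the spread between the 2 lines, with 1 control, and an exact permutation of 1 against 2 libraries cannot give a p below 0.333. A change in the mix of cells and a change in the RNA of each cell cannot be told apart in such bulk libraries.

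TIMPs are secreted proteins that block the zinc-dependent proteases of the extracellular matrix, namely the matrix metalloproteinases (MMPs) and, for some TIMPs, the ADAM and ADAMTS proteases. TIMP3 stays bound to the matrix and inhibits the widest range of these enzymes, ADAM17 among them, which sheds receptors and ligands from the cell surface. The pappalysins PAPPA and PAPPA2 are secreted metalloproteases that cut insulin-like growth factor (IGF) binding proteins and so release IGF, and the stanniocalcins STC1 and STC2 inhibit them.

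RBM15, the target of the knockdown, had 3970 reads in the control, 1957 in shRBM15#1 and 2121 in shRBM15#2. In CPM, that is reads scaled to the size of the library with TMM factors, its level was 80.2, 43.7 and 40.7, or 54.5% and 50.7% of the control. Both libraries labelled as knockdown thus had about the same, lower level. The megakaryocyte markers GATA1, TAL1, ITGA2B and NFE2 were abundant in all 3 libraries, with GATA1 at 71.7, 64.2 and 66.0 CPM. The late markers PF4, with 3, 4 and 2 reads, and GP9, with 2, 2 and 5 reads, were near 0.

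TIMP3 (ENSG00000100234, chromosome 22 from 33197687 to 33259030 on GRCh37, plus strand) was the inhibitor with the most reads in the control. It had 14200 reads in the control, 1530 in shRBM15#1 and 1957 in shRBM15#2. These are 287, 34.2 and 37.5 CPM. TIMP3 was low in both knockdown libraries, at 11.9% of the control with shRBM15#1 (95% exact binomial interval 11.3% to 12.6%) and at 13.1% with shRBM15#2 (12.5% to 13.7%). The fitted log2 fold change was -3.00 (SE 0.22, 2 lines against 1 control). The intervals cover counting error only. Per length, TIMP3 stood above 98.0% of the genes with reads in the control, and above 88.9% and 88.2% in the knockdown libraries, so that its RNA was still readily detected there.

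PAPPA2 (ENSG00000116183, chromosome 1 from 176432307 to 176814735, plus strand), the pappalysin that cuts IGFBP3 and IGFBP5, was the other gene that was low in both lines. It had 3694 reads in the control, 457 in shRBM15#1 and 453 in shRBM15#2, which are 74.7, 10.2 and 8.68 CPM. Its level was 13.7% of the control with shRBM15#1 (12.4% to 15.1%) and 11.6% with shRBM15#2 (10.5% to 12.8%). The fitted log2 fold change was -2.98 (SE 0.25). Compared between the lines, PAPPA2 in shRBM15#2 was 0.851 times its level in shRBM15#1 (0.745 to 0.971), and TIMP3 was 1.10 times (1.03 to 1.17). The lines thus differed little in either gene beside their common distance from the control.

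TIMP1 (ENSG00000102265, chromosome X from 47441712 to 47446188, plus strand), a soluble inhibitor that also binds CD63 at the cell surface, moved the other way. It had 4659 reads in the control, 7089 in shRBM15#1 and 18993 in shRBM15#2, which are 94.2, 158 and 364 CPM. Both knockdown libraries lay above the control, but to unequal degrees. The ratio to the control was 1.68 with shRBM15#1 (1.62 to 1.75) and 3.87 with shRBM15#2 (3.74 to 3.99), and TIMP1 in shRBM15#2 was 2.30 times its level in shRBM15#1 (2.24 to 2.36). The fitted log2 fold change was 1.47 with an SE of 0.44, the widest SE of the 3 abundant members. The lines thus differed from each other by more than shRBM15#1 did from the control.

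**Figure D1:**
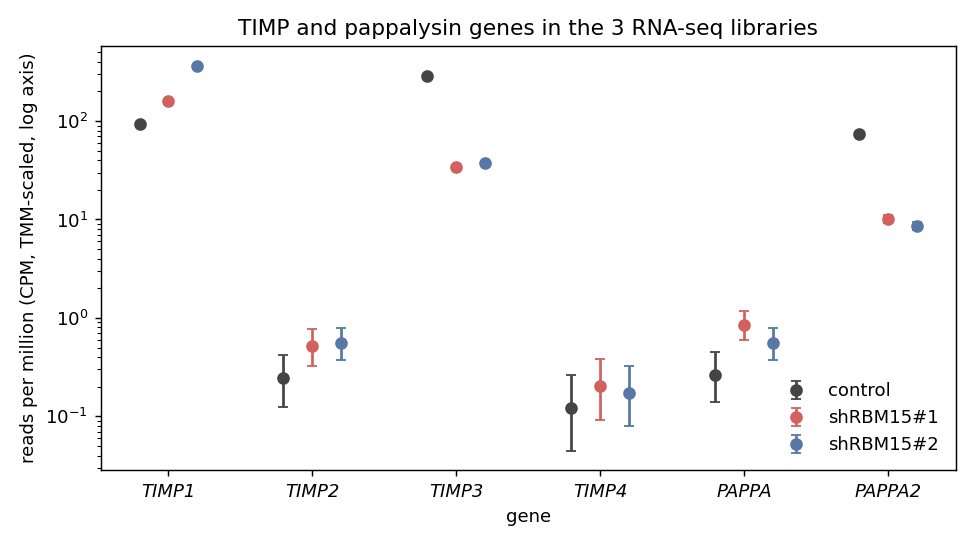
Level of each of the 6 genes in the control and the shRBM15#1 and shRBM15#2 libraries, in CPM on a log axis; points are single libraries and bars are 95% exact Poisson intervals for counting error. TIMP3 and PAPPA2 are at 287 and 74.7 CPM in the control and under 38 CPM in both lines, TIMP1 is higher in both lines, and TIMP2, TIMP4 and PAPPA are under 1 CPM throughout.

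The remaining members were hardly transcribed. TIMP2 (ENSG00000035862, chromosome 17), an inhibitor that also takes part in the activation of MMP2, had 12 reads in the control, 23 in shRBM15#1 and 29 in shRBM15#2. TIMP4 (ENSG00000157150, chromosome 3), best known from the heart, had 6, 9 and 9 reads and did not reach the minimum of 30 reads over the 3 libraries. PAPPA (ENSG00000182752, chromosome 9), the pappalysin that cuts IGFBP4, had 13, 38 and 29 reads. All 3 genes had more reads in the knockdown libraries, with wide counting intervals. The ratio to the control was 2.12 (1.01 to 4.67) and 2.29 (1.13 to 4.93) for TIMP2 and 3.23 (1.68 to 6.61) and 2.12 (1.07 to 4.43) for PAPPA, while the intervals of TIMP4 included 1. Outside the bins that overlap another gene, TIMP2 had 5, 18 and 15 reads. Of the 6 members, 5 passed the minimum of 30 reads and 3 reached 1 CPM in any library.

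Beside these 3 genes, other genes that are silent in blood cells also had more reads in the knockdown libraries. The 381 olfactory receptor genes, a list chosen after the values were seen, summed to 20.0 CPM in the control, 56.6 in shRBM15#1 and 31.9 in shRBM15#2. Per length, TIMP2 was at 0.909, 0.681 and 1.31 times the olfactory receptor level of the same library, TIMP4 at 1.50, 0.878 and 1.34 times, and PAPPA at 0.463, 0.528 and 0.614 times. TIMP2, TIMP4 and PAPPA thus stayed near the level of silent genes in every library. The share of reads that fell in no exon bin was 21.6% in the control, 30.4% in shRBM15#1 and 21.9% in shRBM15#2. The part of these reads in the low values was not tested.

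Among all genes, 0.346% of 24887 were called lower or higher by edgeR's quasi-likelihood test at a Benjamini-Hochberg adjusted p under 0.01, with 0.277% lower and 0.0683% higher. By size alone, 2 members, TIMP3 and PAPPA2, were at least 2-fold lower in both lines, as were 4.54% of the 16948 tested genes with at least 1 CPM in any library. No member with 1 CPM was at least 2-fold higher in both lines, as were 6.66% of those genes, since TIMP1 passed 2-fold with shRBM15#2 only. The members were chosen on this contrast, so nothing is read from these counts.

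In RPKM, that is CPM per kb of exon, TIMP1 and TIMP3 were close in the control, at 52.6 and 62.3, and far apart in the lines. TIMP1 reached 88.5 RPKM in shRBM15#1 and 203 in shRBM15#2, whereas TIMP3 was at 7.42 and 8.15. TIMP3 made up 54.2% of the summed TIMP RPKM in the control, 7.73% in shRBM15#1 and 3.85% in shRBM15#2. The order in the control depends on how length is counted. Over the last exon bin of each gene alone, TIMP1 was at 53.9 RPKM and TIMP3 at 45.1. Whether a read that crosses an exon border was counted in each bin it touches is not stated. PAPPA2 was at 6.83, 0.934 and 0.795 RPKM, below TIMP1 and TIMP3 in each library.

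The low level of TIMP3 extended over its whole transcript. TIMP3 has 5 exon bins. Its first exon bin (422 bases) had 1303 reads in the control, 132 in shRBM15#1 and 162 in shRBM15#2. Its last exon bin (3864 bases) had 8622, 951 and 1240 reads. Over the 5 bins the level was between 11.2% and 12.3% of the control with shRBM15#1 and between 11.6% and 13.6% with shRBM15#2. The change of usage of a bin, that is its log2 fold change relative to the rest of its gene, lay between -0.12 and 0.05. No bin of TIMP3 stood apart from the gene.

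PAPPA2 has 30 exon bins, of which 25 had at least 30 reads, and all 25 were lower than the control in both lines. Their level had a median of 13.4% of the control with shRBM15#1 and of 11.7% with shRBM15#2. Single bins ranged from 4.42% to 28.7% with shRBM15#1 and from 3.47% to 24.1% with shRBM15#2. Relative to the rest of the gene, the fitted usage was lowest in bins 8 and 9, neighbouring exons in the middle of the gene, and highest in bin 18. Bin 8 had 82 reads in the control, 4 in shRBM15#1 and 3 in shRBM15#2. Bin 9 had 89, 5 and 7 reads. Bin 18 had 63, 11 and 16 reads, or 19.3% and 24.1% of the control. The change of usage was -1.47 for bin 8, -0.84 for bin 9 and 0.81 for bin 18, from counts of under 20 reads per knockdown library. Bins 24, 25 and 29, nearer to the end of the gene, were close to bin 9, at -0.76, -0.83 and -0.77. Bin 15 was close to bin 18, at 0.76. The study's limits for a bin are a p under 0.05 with more than a 1.2-fold change, and the p was taken here before adjustment. Bin 8 of PAPPA2 was the 1 bin within the limits among the 43 tested bins of the members, beside 1.45% of 234192 bins over all genes. Nothing is read from this bin because the contrast chose the gene.

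The reads also show in part which transcripts of PAPPA2 were present. Bin 10, 774 bases that belong to the short transcript alone, had 14 reads in the control, 3 in shRBM15#1 and 4 in shRBM15#2, or 18.1 reads per kb in the control. The 17 bins from 11 to 27, which belong to the long transcript that encodes the protease, had 1094, 153 and 144 reads, or 395 per kb in the control. Of the bins from 10 to 27, those of the long transcript thus held most reads in the control and in the lines. Bins 25 to 27 are annotated to 2 transcripts each. Reads in bins that transcripts share, such as bins 4 to 9, cannot be assigned to 1 of them. Among the longest bins of the control, bin 6 had 662 reads per kb, bin 7 had 302 and bin 30 had 221. The source of this difference was not tested. Bins 1 to 3, the annotated first exons, had together 14, 9 and 5 reads over 545 bases, whereas bins 4 to 6 behind them had 1315, 161 and 162 reads over 1835 bases. In reads per kb of the control this is 25.7 against 717. In MEG-01 cells the annotated first exons of PAPPA2 were therefore almost unread.

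All 13 exon bins of TIMP1 with at least 30 reads were above the control in both lines. Their level was between 126% and 253% of the control with shRBM15#1 and between 257% and 423% with shRBM15#2. Its last bin had 718 reads in the control, 1126 in shRBM15#1 and 3014 in shRBM15#2. The higher level of TIMP1 was thus spread over the gene, and no bin of TIMP1 was within the limits for a change of usage.

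**Figure D2:**
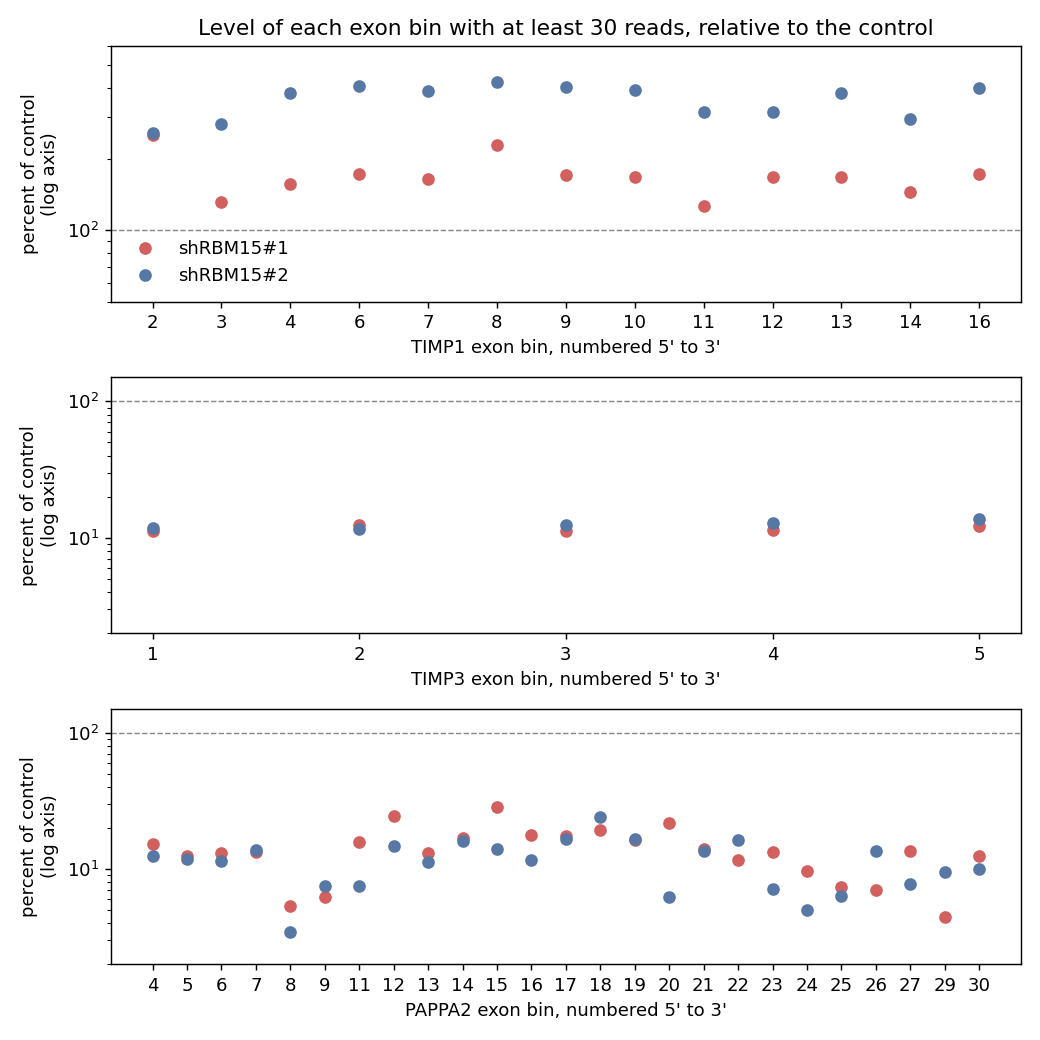
Level of each exon bin in the shRBM15#1 and shRBM15#2 libraries as a percent of the control on a log axis, for the bins of TIMP1, TIMP3 and PAPPA2 with at least 30 reads over the 3 libraries; the dashed line is the control. The 5 TIMP3 bins lie between 11.2% and 13.6%, the PAPPA2 bins scatter around medians of 13.4% and 11.7%, and all TIMP1 bins lie above 100%.

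TIMP1, TIMP3 and TIMP4 lie inside introns of the synapsin genes SYN1, SYN3 and SYN2, on the other strand. Without strand information, reads of a gene and of its host on the other strand cannot be told apart where they overlap. SYN1 had 12 reads in the control, 24 in shRBM15#1 and 13 in shRBM15#2 over its own bins. SYN3 had 25, 22 and 16, and SYN2 had 28, 73 and 40. Of the 6 listed host and overlapping genes, 3 were tested, with 0 called by edgeR or DESeq2 and 0 at an unadjusted p under 0.05. CEP295NL, which overlaps TIMP2, had 7, 15 and 5 reads, and the antisense genes PAPPA-AS1 and PAPPA-AS2 had 4 reads in all. The host genes were thus close to silent, with up to 1.63 CPM, next to 94.2 CPM of TIMP1 and 287 CPM of TIMP3. The last exon bin of TIMP3 overlaps a bin of another annotated gene, and without that bin TIMP3 had 5578, 579 and 717 reads.

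The expressed genes around TIMP3 and PAPPA2 were nearer to the control level than these genes. Within 500 kb of TIMP3 lie 25 other annotated genes, of which 2 reached 1 CPM in any library. RTCB, an RNA ligase, had 6832 reads in the control, 6761 in shRBM15#1 and 7742 in shRBM15#2. FBXO7, a ubiquitin ligase subunit, had 6287, 3615 and 5388 reads. Within 500 kb of PAPPA2 lie 15 genes, of which 3 reached 1 CPM. COP1, a ubiquitin ligase, had 6646, 3665 and 6015 reads, the small RNA SCARNA3 had 93, 44 and 85, and ASTN1, an adhesion protein of neurons and the next gene behind PAPPA2, had 272, 101 and 162. ASTN1 had the lowest log2 ratios of these 5 genes, -1.28 and -0.82. Some sparsely read genes were lower, such as the unnamed gene ENSG00000197047 inside the span of TIMP3 with 36, 5 and 11 reads, and before PAPPA2 the pseudogene MORF4L1P7 with 24, 5 and 7 reads and the unnamed pseudogene ENSG00000227815 with 47, 8 and 8.

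The genes most like TIMP3 and PAPPA2 were found by the distance of the 2 log2 ratios to the control, among 9375 other named genes with at least 10 CPM in the control. Nearest to TIMP3 were AKNA, PAPPA2, TSC22D3, ADGRG3 and MAP1B, at distances of 0.26, 0.26, 0.31, 0.34 and 0.35. Nearest to PAPPA2 were AKNA, TIMP3, ADGRG3, ALDH1L2 and GDF15, at 0.14, 0.26, 0.29, 0.29 and 0.34. Both members were chosen for their low values in these libraries, so nothing is read from their closeness to each other. AKNA, for example, was at 35.2 CPM in the control, 4.42 in shRBM15#1 and 3.87 in shRBM15#2.

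Promoter sequence is shown for TIMP3 and PAPPA2, the 2 members that were low in both lines. The 250 bases before the transcript start are from RefSeq (GRCh38.p14), which matched 5 of the 6 members. They lie at chr22:32801455-32801704 (plus strand) for TIMP3 and at chr1:176462925-176463174 (plus strand) for PAPPA2. Capitals mark matches to the motifs searched on both strands.
TIMP3: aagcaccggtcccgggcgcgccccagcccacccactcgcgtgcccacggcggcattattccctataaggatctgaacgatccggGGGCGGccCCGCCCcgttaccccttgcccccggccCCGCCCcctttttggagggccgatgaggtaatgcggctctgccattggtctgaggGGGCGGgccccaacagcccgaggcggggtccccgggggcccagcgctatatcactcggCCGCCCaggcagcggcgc
PAPPA2: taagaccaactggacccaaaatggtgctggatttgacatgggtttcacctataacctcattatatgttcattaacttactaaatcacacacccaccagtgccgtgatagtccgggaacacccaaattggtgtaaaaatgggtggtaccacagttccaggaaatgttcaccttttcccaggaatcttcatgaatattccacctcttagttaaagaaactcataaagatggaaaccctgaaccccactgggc

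The motifs were the Sp1 box GGGCGG, the TATA box TATAAA, the AP-1 site TGANTCA, the C/EBP-ATF element TGATGNAA, the GATA site GATAA and the ETS site CCGGAA. Over 35116 promoters of this length, 42.6%, 10.7%, 6.57%, 3.14%, 20.4% and 14.5% held them. The TIMP3 sequence held 5 Sp1 boxes and no other of these motifs, with 72.4% G and C bases, and the PAPPA2 sequence held none of the 6, with 42.8%. The median over all promoters was 58.0% G and C. The promoters of TIMP3 and PAPPA2 thus shared none of these motifs. An exact match on GRCh37 put the RefSeq start of PAPPA2 in its exon bin 1, which had 4, 2 and 2 reads, and that of TIMP3 in its exon bin 1 with 1303 reads in the control. The printed PAPPA2 sequence is therefore that of a start with few reads in these cells.

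The genes were looked up in the deposited list of 1515 significant sites from RIP-seq with an antibody against RBM15 in MEG-01 cells. For 2 of the 4 RIP-seq libraries the antibody label and the role in the authors' test contradict each other, so a listed site is given here as listed and not as proof of binding. The list holds intronic sites in GATA1 and TAL1. By RIP with real-time PCR, the paper reports GATA1 mRNA bound to RBM15. Whether the labels were exchanged was not tested. No site lay within the span of any of the 6 members. Of 4455 named genes with at least 50 CPM in the control, a range that includes TIMP1, TIMP3 and PAPPA2, 14.1% had a site. Of the 18 genes at that level on the lists below 2, INSR and ADAM28, had a site, and of all 117 genes on these lists, most of them at lower levels, 3 had one. INSR, the insulin receptor, had 2 intronic sites, at chr19:7197521-7198025 and chr19:7228938-7229318 (hg19, minus strand), and ADAMTS14 and ADAM28 had 1 intronic site each. The list holds only sites that passed the authors' limits, so the absence of a gene from it says nothing about binding below those limits.

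The proteases, partners, IGF genes, matrix proteins and host genes around the members were described from 10 lists with 117 genes, of which 109 passed the minimum of 30 reads. By edgeR's quasi-likelihood test 2 of these, 1.83%, were called at an adjusted p under 0.01, beside 0.346% of all genes, STC2 in the lower and IGFBP5 in the higher direction. The lists were chosen with earlier results of these data known, so nothing is read from the distance between these shares. With at least 1 CPM in any library, 3 of 82 genes, or 3.66%, were at least 2-fold lower in both lines and 20, or 24.4%, were at least 2-fold higher, beside 4.54% and 6.66% of all genes at that level. An unadjusted p under 0.05, counted for the lists that follow, was reached by 18.8% of all 24887 genes, and DESeq2 called 1.94% of them. The median log2 fold change of the 82 was 0.47, beside -0.09 over the 16948 genes. Over the 109 tested listed genes it was 0.88, beside 0.02 over all 24887 tested genes. By list, the median over genes with 1 CPM was 0.14 for MMPs, 0.47 for ADAM and 0.57 for ADAMTS proteases. It was 0.48 for other inhibitors and partners, 0.04 for shed proteins and -0.42 for IGF ligands and receptors. For IGF binding proteins it was -0.83, for pappalysin inhibitors -0.19 and for matrix proteins 1.203. SYN2, the 1 host gene with 1 CPM, was at 1.07. Over all tested genes of a list, the median was 1.25 for MMPs, 0.54 for ADAM and 1.41 for ADAMTS proteases. It was 1.67 for other inhibitors and partners, 0.29 for shed proteins, 0.68 for host genes, -0.19 for pappalysin inhibitors and 1.203 for matrix proteins. The sign turned for IGF ligands and receptors, at 0.24, and for IGF binding proteins, at 1.69. Most of the 20 higher genes had low levels. Most were under 1 CPM in the control and so passed that limit only through the knockdown libraries. Nothing is therefore read from the count of higher genes, nor from the medians above, which include such genes. Among genes with a mean of at least 10 CPM, a limit added after the values were seen, 2 of 28 were lower and 2 were higher, IGFBP5 and KDR, which is 7.14% each, and the median was -0.25. Of all 9318 genes at that level, 3.72% were lower and 1.40% higher in both lines, with a median of -0.14.

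**Figure D3:**
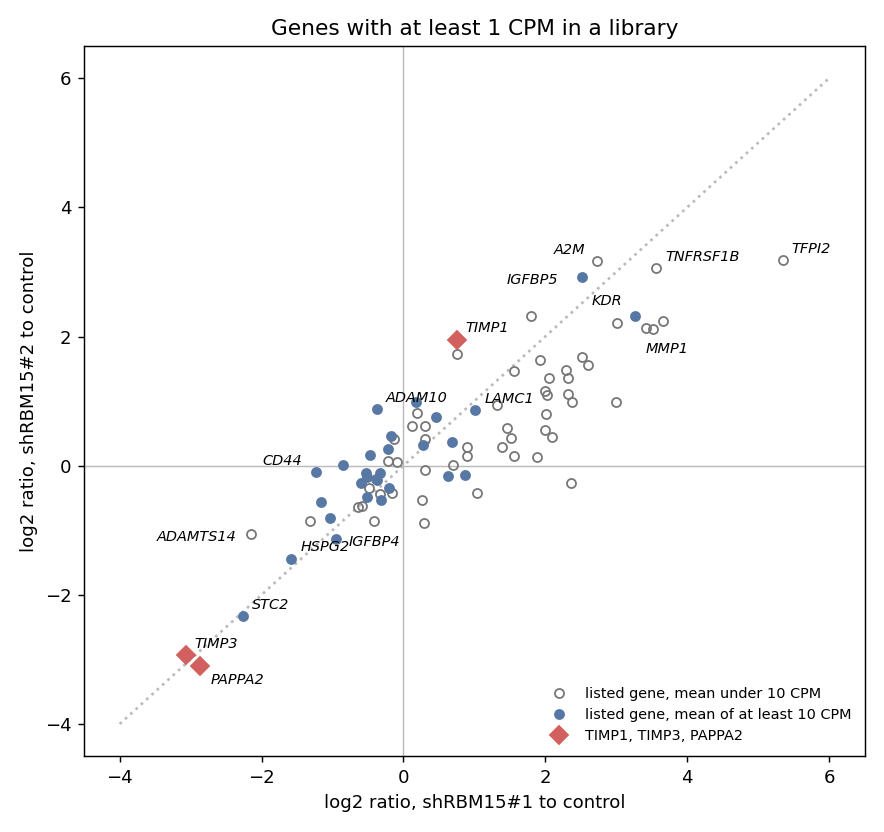
Log2 ratio to the control in shRBM15#1 (x axis) and shRBM15#2 (y axis) for members and listed genes with at least 1 CPM in a library; each point is a gene, and on the dotted line both lines are equal. TIMP3 and PAPPA2 lie close to each other at the lower left, and STC2 is less low, at -2.26 and -2.33. Listed genes at least 2-fold higher in both lines have a mean under 10 CPM (open points), apart from KDR and IGFBP5.

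The main targets of the TIMPs are the MMPs, of which 20 of 23 were tested. By edgeR 0 of them were called, with 8 at an unadjusted p under 0.05 and 1 called by DESeq2. MMP2, the gelatinase that TIMP2 helps to activate, had 542 reads in the control, 761 in shRBM15#1 and 512 in shRBM15#2, and MMP15, a membrane-bound MMP, was at 6.02, 4.62 and 5.21 CPM. MMP1, the interstitial collagenase, was at 1.11, 12.8 and 4.83 CPM (log2 fold change 2.99, SE 0.64, adjusted p = 0.0591 by edgeR). The stromelysin MMP10 was at 0.202, 2.68 and 0.997 CPM, and MMP19 at 0.182, 1.54 and 0.882. These 3 MMPs were thus highest in shRBM15#1, where MMP1 reached 6.52 RPKM beside 3.45 RPKM of MMP2, and near 1 CPM or below in the control. The 13 MMPs under 1 CPM in every library summed to 1.43, 6.21 and 3.56 CPM, with the same order of libraries as the olfactory receptors.

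TIMP3 is the main inhibitor of several ADAM proteases, and 12 of 12 listed ADAM genes were tested. By edgeR and by DESeq2 0 were called, with 3 at an unadjusted p under 0.05. ADAM10, the principal sheddase of NOTCH1 and CD44, was at 290 CPM in the control, 224 in shRBM15#1 and 530 in shRBM15#2. ADAM15 was at 201, 174 and 158 CPM, ADAM9 at 110, 61.1 and 110.1, and ADAM17, which cuts TNF and its receptors, at 81.2, 56.3 and 75.3. ADAM10 thus differed between the lines, as TIMP1 did, while ADAM15 and ADAM17 were a little below the control in both. ADAM12 and ADAM19 were at least 2-fold higher in both lines, ADAM19 at 0.788, 3.17 and 1.76 CPM.

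Of the ADAMTS proteases, which cut aggrecan, versican and procollagens, 19 of 19 were tested. By edgeR and by DESeq2 0 were called, with 6 at an unadjusted p under 0.05. ADAMTS3 had 1230 reads in the control, 883 in shRBM15#1 and 1198 in shRBM15#2, and ADAMTS1 was at 17.5, 31.9 and 15.7 CPM. ADAMTS14, a procollagen protease with a site on the RIP-seq list, was the 1 ADAMTS gene that was at least 2-fold lower in both lines, at 10.3, 2.30 and 4.94 CPM (adjusted p = 0.142 by edgeR). ADAMTS2, ADAMTS6 and ADAMTS19 were at least 2-fold higher in both lines, with ADAMTS6 at 1.52, 7.64 and 3.91 CPM.

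Among other inhibitors and partners of the TIMPs, 8 of 8 genes were tested, with 0 called by edgeR, 5 at an unadjusted p under 0.05 and 2 called by DESeq2. The protease inhibitors A2M and TFPI2 and the receptor KDR were at least 2-fold higher in both lines. KDR, the VEGF receptor that TIMP3 binds, was at 15.3 CPM in the control, 147 in shRBM15#1 and 76.2 in shRBM15#2 (log2 fold change 2.87, SE 0.41, adjusted p = 0.0150 by edgeR). A2M, the broad protease trap alpha-2-macroglobulin, was at 1.23, 8.20 and 11.1 CPM (adjusted p = 0.0148). TFPI2 was at 0.364, 15.2 and 3.37 CPM. CD63, the surface partner of TIMP1, was at 558, 495 and 772 CPM, and ITGB1, its integrin partner, at 412, 289 and 294. DESeq2 called KDR and A2M. By edgeR they were not called in the main setting, but were called after DESeq2 size factors and without a filter on reads, as was TNFRSF1B of the next list.

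The genes that regulate ADAM17 or are shed at the surface gave 17 tested genes, with 0 called by edgeR, 4 at an unadjusted p under 0.05 and 1 called by DESeq2. That gene was TNFRSF1B, a TNF receptor, at 0.788 CPM in the control, 9.43 in shRBM15#1 and 6.63 in shRBM15#2 (adjusted p = 0.0129 by edgeR). The abundant shed proteins were APP at 918, 645 and 816 CPM, CD44 at 691, 294 and 646, and TNFRSF1A at 81.2, 58.5 and 91.2. These 3 were lower in shRBM15#1 than in shRBM15#2 and the control.

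The stanniocalcins and PRG2 inhibit the pappalysins, and 1 of these 3 genes was called. STC2 fell with the knockdown, from 8124 reads in the control to 1530 in shRBM15#1 and 1703 in shRBM15#2. Its level was 164, 34.2 and 32.6 CPM (log2 fold change -2.30, SE 0.22, adjusted p = 0.00316 by edgeR), lower in 2 of 2 lines. With only genes of at least 300 reads tested, the calls of STC2 and of IGFBP5 were lost, at an adjusted p of 0.0185 by edgeR for both. STC1 was at 0.848, 4.47 and 1.69 CPM, and PRG2, the eosinophil major basic protein that binds PAPPA, at 2.24, 2.75 and 1.21. The inhibitor STC2 and the protease PAPPA2 were thus low in the same libraries. In RPKM STC2 was above PAPPA2 in each, at 26.8, 5.58 and 5.33.

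Of the IGF binding proteins, which the pappalysins cut, 5 of 6 were tested and 1 was called. IGFBP5, a target of PAPPA2 and PAPPA, rose with the knockdown from 561 reads in the control to 2909 in shRBM15#1 and 4495 in shRBM15#2. Its level was 11.3, 65.0 and 86.2 CPM (log2 fold change 2.74, SE 0.30, adjusted p = 0.00552 by edgeR), higher in 2 of 2 lines. IGFBP4, the main target of PAPPA, was at 81.3, 41.9 and 36.95 CPM (adjusted p = 0.0664), and IGFBP2 at 173, 77.5 and 117 CPM (adjusted p = 0.172). IGFBP3, the other target of PAPPA2, had 8, 36 and 14 reads. In RPKM, IGFBP2 and IGFBP4 led in the control at 36.3 and 36.8 with IGFBP5 at 1.76. In the lines IGFBP5 was nearer to them but still below both, at 10.1 and 13.4 RPKM beside 16.3 and 24.6 of IGFBP2 and 18.9 and 16.7 of IGFBP4.

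The IGF ligands were near silent. IGF1 had 30, 104 and 99 reads and IGF2 had 1, 33 and 6. Of the 8 IGF ligand and receptor genes tested, 0 were called by edgeR or DESeq2, with 3 at an unadjusted p under 0.05. IGF2R, which clears IGF2, was at 206 CPM in the control, 100.4 in shRBM15#1 and 117 in shRBM15#2 (log2 fold change -0.92, SE 0.22, adjusted p = 0.0877 by edgeR). INSR was at 56.2, 45.1 and 39.0 CPM, and IGF1R, the signaling receptor for IGF, at 14.1, 22.6 and 18.1. MEG-01 cells thus had RNA for the receptors and for IGFBP2 and IGFBP4, but little for the ligands.

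**Figure D4:**
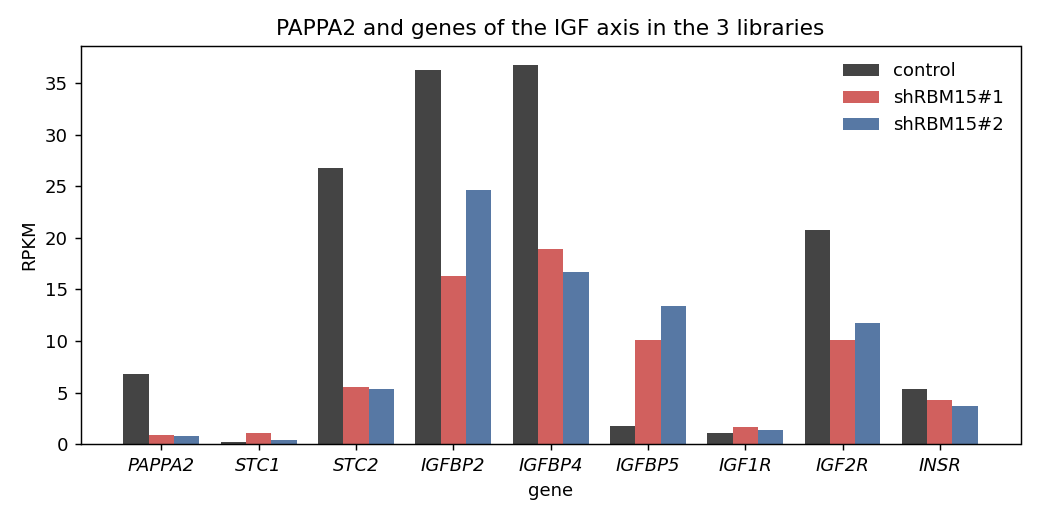
Level per length (RPKM) of PAPPA2, the stanniocalcins, IGF binding proteins and IGF receptors in the control, shRBM15#1 and shRBM15#2 libraries; each bar is 1 library, so there are no error bars. PAPPA2 and STC2 are lower in both lines, IGFBP5 is higher, and IGFBP4 and IGF2R are lower without passing the test.

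Matrix proteins, the substrates of these proteases, gave 14 tested genes, with 0 called by edgeR, 9 at an unadjusted p under 0.05 and 1 called by DESeq2. That gene was HSPG2, the basement membrane proteoglycan perlecan, at 49.5 CPM in the control, 16.5 in shRBM15#1 and 18.2 in shRBM15#2 (log2 fold change -1.51, SE 0.25, adjusted p = 0.0238 by edgeR). The laminin chains LAMC1 and LAMB1 were the other abundant matrix genes, LAMC1 at 66.6, 134 and 120 CPM and LAMB1 at 52.2, 40.3 and 44.9. COL1A2, COL3A1, ACAN, ELN and DCN were at least 2-fold higher in both lines but were at 2.21 CPM or less in every library.

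Several markers of other cell types were higher in the lines. These lists overlap those above, since COL1A1, COL1A2, COL3A1 and DCN are matrix proteins as well as fibroblast markers, and KDR is a TIMP3 partner as well as an endothelial marker. The 7 fibroblast markers summed to 3.05 CPM in the control, 16.5 in shRBM15#1 and 13.4 in shRBM15#2, with PDGFRA the most abundant at 0.647, 5.09 and 7.76 CPM and the collagen gene COL1A1 at 17, 126 and 36 reads. The 7 trophoblast markers summed to 1.23, 6.59 and 3.55 CPM, with CYP19A1 the most abundant on average and PSG1 the most abundant in shRBM15#1. The defining hormone genes CGA and CGB5 were near 0, at 1, 5 and 7 and at 1, 3 and 2 reads. The 6 endothelial markers summed to 137, 222 and 178 CPM, with KDR the most abundant on average, but without KDR they summed to 121, 74.6 and 101 CPM. The other markers of this list went in different directions, with ESAM at 57.5, 26.4 and 42.8 CPM, ERG at 56.1, 37.8 and 41.2 and PLVAP at 0.222, 3.13 and 3.89 (adjusted p = 0.0137 by edgeR). The 5 lymphocyte markers summed to 4.77, 5.36 and 4.47 CPM, led by CD3D. The megakaryocyte markers, 9 of the 10 listed, summed to 1473, 1205 and 1473.4 CPM, led by ITGA2B. Within this list ITGA2B was at 919, 476 and 607 CPM, TAL1 at 236, 347 and 399, and ITGB3 at 6.28, 17.9 and 51.8. By edgeR 0 markers of the 5 lists were called. An unadjusted p under 0.05 was reached by 4 of 7 tested megakaryocyte, 6 of 7 fibroblast, 3 of 6 endothelial, 4 of 5 trophoblast and 1 of 5 lymphocyte markers, and DESeq2 called 0, 1, 2, 0 and 0 of them. The fibroblast and trophoblast lists thus stayed at a small fraction of the megakaryocyte markers in each library. Their part in the values of the matrix proteases and matrix proteins was not tested.

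**Figure D5:**
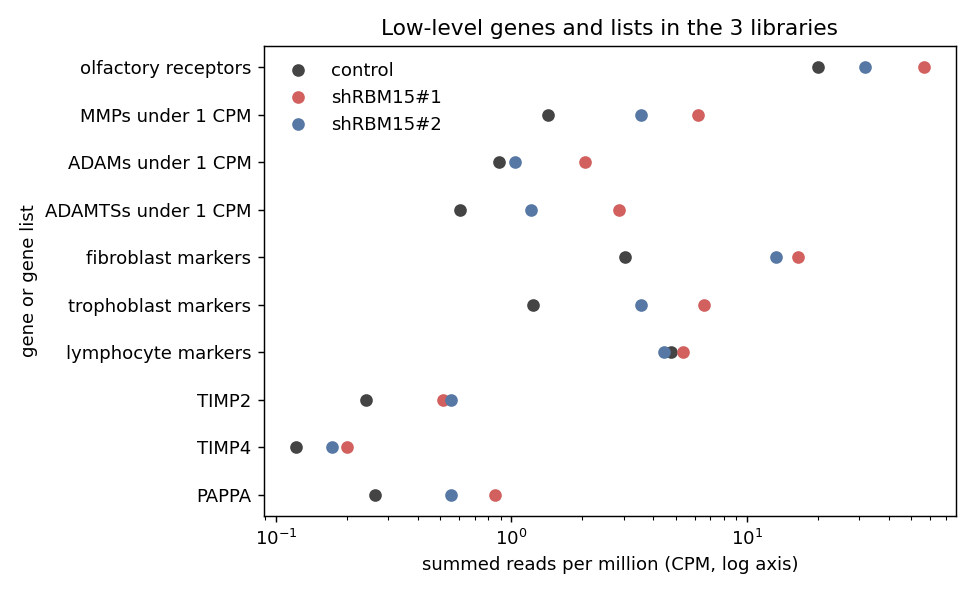
Summed level in CPM on a log axis of olfactory receptor genes, of MMP, ADAM and ADAMTS genes under 1 CPM in every library, of markers of other cell types and of TIMP2, TIMP4 and PAPPA; each point is 1 library. Apart from the lymphocyte markers, all are lowest in the control, and most are highest in shRBM15#1, as for the olfactory receptors with 20.0, 56.6 and 31.9 CPM.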

How the data were processed

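With STAR the authors aligned the read pairs to GRCh37, and they deposited raw counts per exon bin of Ensembl 70 gene models. No source used here names the program that counted, and HTSeq 0.6.0 is among the tools in the submitters' processing notes. The authors also deposited a table of exon usage with their fold changes and p-values, and a list of RIP-seq sites with their comparison, of which only counts, positions and names were used. Bin counts were summed per gene. Lines that name no gene, 23.2%, 32.0% and 23.5% of reads, were left out. Symbols were found for 54794 of 62238 genes in GENCODE on GRCh37. Genes with at least 30 reads were tested with edgeR 4.0.16 in R 4.3.3 after TMM normalization, and bins with diffSpliceDGE. DESeq2 1.42.0 was an alternative. Both tests were checked on simulated data. Ratios of 2 libraries carry 95% exact binomial intervals, and log2 ratios a pseudocount of 0.5 reads.

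The members and lists were chosen with earlier results of these data known. Of each list, the text names genes called at 0.01, genes at least 2-fold lower or higher in both lines with 1 CPM, and the 3 with the highest mean RPKM. It also names the 5 genes most like TIMP3 and PAPPA2, and neighbours within 500 kb that reached 1 CPM. A gene that this rule takes is not reported here. Other genes named were chosen after their values were seen. Protein sequences were not used here.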

Additional observations from a re-analysis of the deposited data

Results flagged for a closer look

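Reads outside all exon bins, which enter no comparison, were more frequent in the shRBM15#1 library, with 30.4% of its reads, and slightly in shRBM15#2, with 21.9%, than in the control, with 21.6%. What these reads are was not tested.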

How the results depend on the processing

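The log2 fold changes of TIMP1, TIMP3, PAPPA2, TIMP2 and PAPPA kept their sign under all alternatives run. TIMP2 moved from 1.13 to 1.74 with only bins that overlap no other gene, to 1.29 with library size alone and to 1.00 without a filter. TIMP3 was at -2.85 with library size alone, -3.13 without a filter and -2.86 with at least 300 reads. The median of 12901 genes moved by 0.15, -0.13 and 0.14 in these fits, so that TIMP3 moved with all genes. Leaving out 1 line gave -3.06 to -2.94 for TIMP3 and 0.76 to 1.95 for TIMP1, as a fold change with no test.

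Counts of calls depended on the setting, and the cause was not tested. Over all genes edgeR called 86, with 191 after DESeq2 size factors, 49 with library size alone, 801 without a filter and 0 with at least 300 reads, where 2938 had an unadjusted p under 0.05, and the DESeq2 Wald test called 484. Of listed genes edgeR called 2, with 5 after size factors, 10 without a filter and 0 with at least 300 reads, where 19 had an unadjusted p under 0.05, and DESeq2 called 7. Size factors added A2M, KDR and TNFRSF1B, DESeq2 these with HSPG2 and MMP1, and no filter all 5 with ADAMTS14, MMP10 and TFPI2. The highest adjusted p of STC2 and IGFBP5 over the alternatives was 0.0185. Bins within the limits for usage numbered 3392, with 8733 from bins with at least 1 read and 736 from bins with at least 300. Bin 8 of PAPPA2, with 89 reads in all, is not among the latter. Of the members' bins, 1 of 43 was within the limits, with 2 of 86 from bins with at least 1 read and 0 of 21 from bins with at least 300. Of 20 listed genes at least 2-fold higher in both lines, 2 had a mean of 10 CPM. No paired analysis was possible because there is 1 control and its number is not tied to a line. With 1 control, a difference between control cultures cannot be told apart from the knockdown.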
